A study of Mus musculus with 15 samples.

Results

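The comparison described here set brain RNA of mice given the treatment labelled JU against brain RNA of mice given the treatment labelled JA. It took 6 of the 15 libraries of the series, 3 in each group, chosen by their labels (a further count column with a JU name matches no sample's labels and was not used), and 14664 of the 18931 genes listed, those with at least 10 counts in at least 3 of the 6 libraries. Both groups were Kunming mice, an outbred stock, with middle cerebral artery occlusion (MCAO), and the other groups, used only for context, were mice with MCAO given the treatment UA or vehicle, and sham mice whose titles also carry the word MCAO. The study's title names jasminoidin, an iridoid glycoside of gardenia fruit, combined with ursodeoxycholic acid, a bile acid, but the labels do not spell out JU, JA or UA. They give no dose, time, age, sex, hemisphere or brain region, and are silent on whether a group's 3 libraries are from different mice. The p-values below thus speak of the spread among these libraries, which may be technical.

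In MCAO the artery that feeds most of the lateral hemisphere is closed and then, in the ischemia-reperfusion form, opened again. Injured tissue loses neurons, microglia and astrocytes take on reactive states, and blood and border cells can enter through a leaking barrier. Adult haemoglobin is made of alpha chains and beta chains, and its haem is built in maturing red cells by the enzyme Alas2, so the mRNAs of these genes mark young red blood cells. Immediate early genes such as Arc and Egr2 are transcribed within a short time of neuronal activity, and Nr1d2, which encodes REV-ERB beta, is a repressor in the circadian clock.

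The 6 libraries held between 18575134 and 19970352 counts, with 16498 to 16911 genes detected. JU replicate 1 stood apart from the other JU libraries and JA replicate 1 from the other JA libraries. On the first principal component, which held 79.9% of the variance, JU replicates 1, 2 and 3 scored 117, −39.3 and −6.73, and JA replicates 1, 2 and 3 scored 12.9, −35.9 and −47.5. Markers of neurons were abundant in every library: the 14 pan-neuronal genes tested summed to 4814, 12075 and 10694 counts per 1000000 counts (CPM) in JU and to 10001, 11599 and 12536 CPM in JA. The 28 genes of reactive microglia and macrophages summed to 55670, 3028 and 6253 CPM in JU and to 10684, 2965 and 2591 CPM in JA. In each group the sum was highest in replicate 1, and the neuronal sum was lowest there too. The log2 fold changes and list medians of the edgeR fit below are therefore given with all libraries and without both of these. In such bulk samples, fewer cells of a type and less RNA per cell cannot be told apart.

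No gene passed the test between JU and JA. edgeR's quasi-likelihood test, fitted over all 15 libraries, called 0 of 14664 genes (0%) at an adjusted p under 0.05, and the smallest adjusted p was 0.0928. With JU replicate 2 left out it called 71 genes, 16 higher and 55 lower in JU, and with any other of the 6 libraries left out it called 0. At an unadjusted p under 0.05 it listed 3024 genes (20.6%), of which 1699 (11.6%) were higher and 1325 (9.04%) lower in JU. Without JU replicate 1 and JA replicate 1, edgeR again called 0 genes (0%), with 609 genes (4.15%) higher and 1428 (9.74%) lower in JU at an unadjusted p under 0.05. DESeq2, run as an alternative, called 643 genes (4.38%) in all libraries, with 199 (1.36%) higher and 444 (3.03%) lower in JU. Without both libraries DESeq2 called 255 genes (1.74%), of which 30 (0.205%) were higher and 225 (1.53%) lower, and 180 genes were called both times, 27.99% of the 643 and 70.6% of the 255. All JU libraries lay above all JA libraries for 1033 genes (7.04%) and below them for 1513 (10.3%). Since no gene passed edgeR's test, the sections below give values and directions of fold changes, which are log2 of JU over JA, with the standard error (SE).

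The genes of red blood cells had the largest median fold change of any gene list. Hba-a1, an alpha globin chain, had 121, 126 and 145 CPM in JU, against 2.10, 18.2 and 13.5 CPM in JA, a mean of 131 ± 12.9 in JU and 11.2 ± 8.25 in JA (SD, n = 3 each). Every JU library lay above every JA library, also without both outlying libraries. The log2 fold change was 3.54 (SE 0.978, edgeR adjusted p = 0.142), and 3.09 (SE 1.09, adjusted p = 0.266) without JU replicate 1 and JA replicate 1. DESeq2's adjusted p was 0.0131 over all libraries and 0.0939 without both. The reads behind these values numbered 2353, 2307 and 2914 in JU and 42, 354 and 245 in JA.

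Hbb-bs, an adult beta globin chain, followed the same order, with 221, 313 and 294 CPM in JU, against 2.86, 41.4 and 27.5 CPM in JA (log2 fold change 3.53, SE 1.11, edgeR adjusted p = 0.172, DESeq2 adjusted p = 0.0311). Its neighbour Hbb-bt, the other adult beta chain, had 34.9, 46.2 and 50.7 CPM in JU, against 0.501, 6.92 and 3.30 CPM in JA (3.62, SE 1.12, edgeR adjusted p = 0.167, DESeq2 adjusted p = 0.0390). Alas2 had 13.02, 21.8 and 16.9 CPM in JU, against 0.0501, 2.41 and 1.49 CPM in JA (3.71, SE 1.13, edgeR adjusted p = 0.162, DESeq2 adjusted p = 0.0244), where the lowest JA value rests on 1 read. In none of these genes did a JU library overlap a JA library. Without both outlying libraries the log2 fold changes were 3.12, 3.23 and 3.29 for Hbb-bs, Hbb-bt and Alas2, and DESeq2 gave these genes no adjusted p. In a fit of only the 4 remaining JU and JA libraries, edgeR called Hba-a1 (adjusted p = 0.00722) and Alas2 (adjusted p = 0.0193) and no other gene. That fit has only 2 residual degrees of freedom.

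The 5' regions of these 4 genes are shown because the genes had the 4 largest fold changes of the list, of like size. Each sequence is the 250 bases before the RefSeq transcript start in GRCm38.p6, read 5' to 3' on the gene's strand, with capitals for matches on either strand to the CCAAT box, the CACCC box, the GATAA core of GATA factors and the ATATAA form of the TATA box. The windows lie at chr11:32283422-32283671 (plus strand) for Hba-a1, chr7:103827929-103828178 (minus strand) for Hbb-bs, chr7:103813924-103814173 (minus strand) for Hbb-bt and chrX:150547167-150547416 (plus strand) for Alas2.
Hba-a1: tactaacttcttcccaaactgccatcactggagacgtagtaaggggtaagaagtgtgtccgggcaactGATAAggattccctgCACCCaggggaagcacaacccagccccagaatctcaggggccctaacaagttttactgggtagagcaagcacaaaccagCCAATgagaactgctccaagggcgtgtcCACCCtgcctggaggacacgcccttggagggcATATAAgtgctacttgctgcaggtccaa
Hbb-bs: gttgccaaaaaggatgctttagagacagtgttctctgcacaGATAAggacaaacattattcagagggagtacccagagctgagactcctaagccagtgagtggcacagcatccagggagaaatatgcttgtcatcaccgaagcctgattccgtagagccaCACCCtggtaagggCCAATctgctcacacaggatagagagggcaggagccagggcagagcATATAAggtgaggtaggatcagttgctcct
Hbb-bt: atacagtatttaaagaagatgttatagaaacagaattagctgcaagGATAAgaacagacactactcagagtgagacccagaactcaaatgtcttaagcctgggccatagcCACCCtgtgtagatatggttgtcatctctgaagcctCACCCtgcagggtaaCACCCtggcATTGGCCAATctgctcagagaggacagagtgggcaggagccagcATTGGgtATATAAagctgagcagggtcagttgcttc
Alas2: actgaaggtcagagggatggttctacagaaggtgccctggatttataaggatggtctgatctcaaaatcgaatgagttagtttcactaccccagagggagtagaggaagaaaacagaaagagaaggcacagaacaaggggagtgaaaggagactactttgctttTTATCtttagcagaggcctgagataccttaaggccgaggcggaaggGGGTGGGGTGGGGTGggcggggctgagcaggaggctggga
The 3 globin windows each hold all 4 motifs, which 0.466% of 32851 RefSeq windows of the same length do. Alas2 holds GATAA 1 time and CACCC 3 times, with no match to CCAAT or ATATAA. No match overlaps another. Singly, CCAAT is in 33.8% of the windows, CACCC in 52.0%, GATAA in 22.6% and ATATAA in 9.10%. A match is a description of the letters and no more. The windows of Hba-a1 and its copy Hba-a2 share a stretch of 247 of their 250 bases, while the longest stretch that Hbb-bs and Hbb-bt share is 14 bases.

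**Figure D1:**
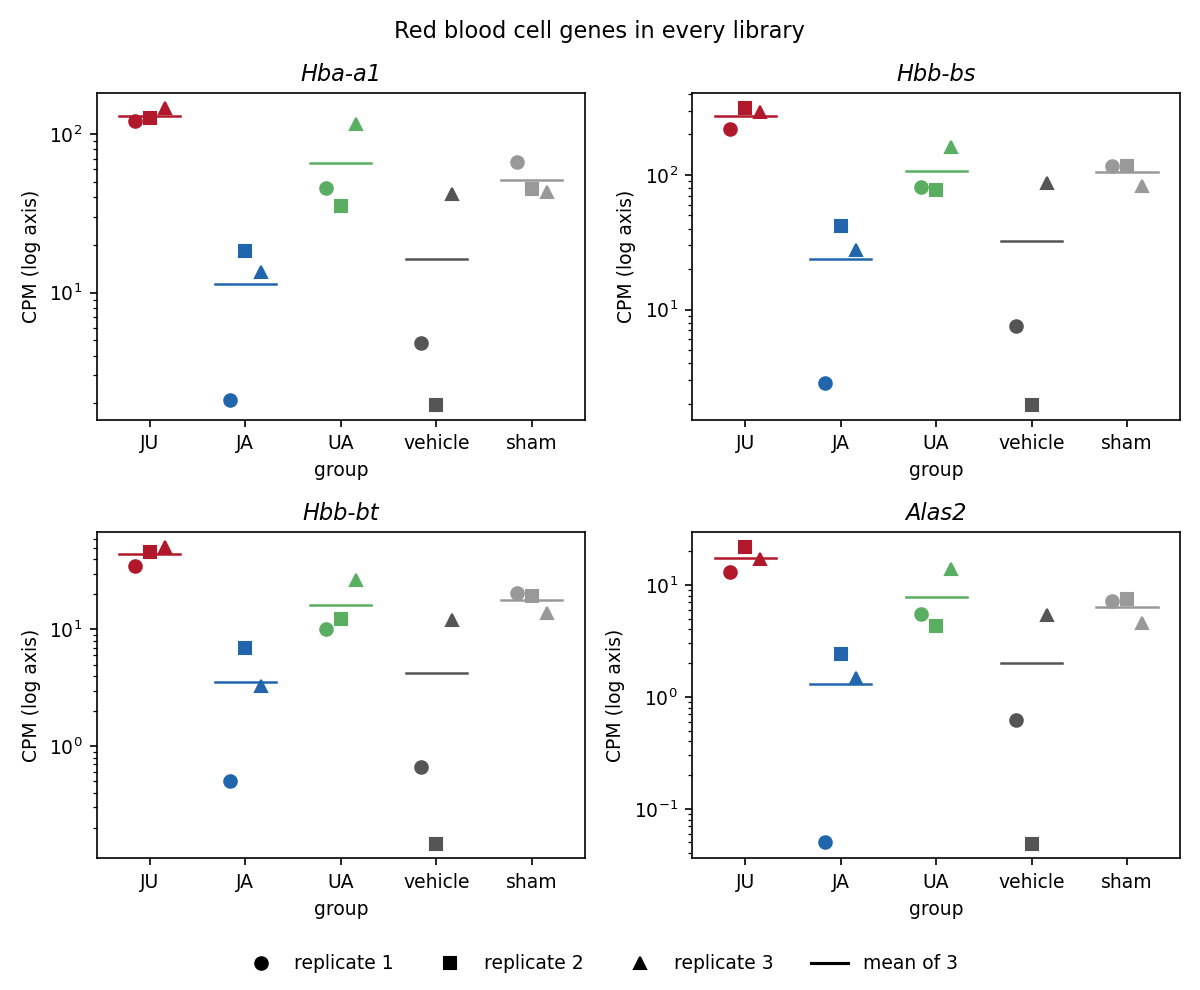
CPM on a log axis of Hba-a1, Hbb-bs, Hbb-bt and Alas2 in each library of the JU, JA, UA, vehicle and sham groups; symbols mark replicates and the bar the mean of 3. The 3 JU libraries lie close together, while the JA libraries spread downwards to JA replicate 1, which for Hba-a1 had 2.10 CPM.

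The other groups also varied widely in these genes. Hba-a1 had 46.0, 35.0 and 115 CPM in UA libraries, 4.79, 1.96 and 42.1 CPM in vehicle libraries and 66.5, 45.2 and 43.2 CPM in sham libraries. The 3 JU values were the highest of the 15 libraries, and the lowest were in vehicle and in JA. The red blood cell list had 9 members, of which 6 were tested. The near-identical copy Hba-a2, whose reads may be split with Hba-a1, had 18, 366 and 4 reads in JU and 2, 0 and 0 in JA. Slc4a1, the red cell anion exchanger, had 6, 10 and 17 reads in JU and 0, 0 and 3 in JA. Both genes were too low to test. Bpgm, a tested member that is also expressed outside red cells, encodes bisphosphoglycerate mutase and had 73.8, 86.4 and 84.6 CPM in JU, against 74.1, 76.6 and 79.8 CPM in JA. The groups overlapped in Bpgm. Whether the amount of blood in the samples differed was not tested.

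By unadjusted p among genes whose JU and JA libraries did not overlap, the genes higher in JU began with Cfap52, Cdk18 and Kcne1l. Cfap52, a protein of motile cilia and flagella at chr11:67924806-67965651, had 5.64, 3.56 and 3.64 CPM in JU, against 1.65, 1.90 and 1.43 CPM in JA. Its log2 fold change was 1.36 (SE 0.244, edgeR adjusted p = 0.0928, DESeq2 adjusted p = 0.000172), and 1.10 without both outlying libraries. The vehicle libraries had 3.40, 3.48 and 2.99 CPM of Cfap52 and the sham libraries 2.31, 2.13 and 1.46 CPM, so the JU libraries lay above both and the JA libraries within or under the sham range. Part of Cfap52 overlaps an exon of a gene on the other strand, so its reads are uncertain where strand was not used in counting.

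Kcne1l, a small regulatory subunit of voltage-gated potassium channels at chrX:142304752-142306294, had 17.8, 10.4 and 18.1 CPM in JU, against 7.67, 8.46 and 5.39 CPM in JA (log2 fold change 1.11, SE 0.216, edgeR adjusted p = 0.0928, and 1.03 without both). It too was near the vehicle libraries in JU, which had 13.95, 14.05 and 12.7 CPM, and near the sham libraries in JA, which had 6.82, 5.41 and 6.22 CPM. Cdk18, a cyclin-dependent kinase of the PCTAIRE family, had tight replicates, with 51.0, 51.5 and 50.3 CPM in JU, against 40.9, 40.3 and 42.5 CPM in JA. Its log2 fold change was 0.31 (SE 0.058, edgeR adjusted p = 0.0928), 0.29 without both outlying libraries, and 0.10 once the fit carried offsets for transcript GC content. Zfp366, a zinc finger corepressor of nuclear receptors, had 4.92, 5.20 and 5.03 CPM in JU, against 3.01, 2.82 and 2.70 CPM in JA (log2 fold change 0.83, and 0.88 without both). For Zfp366, unlike Cdk18, the JU libraries were above the vehicle libraries, which had 3.14, 2.50 and 3.19 CPM, and above the sham libraries, which had 2.78, 3.43 and 2.93 CPM.

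The remaining genes of this rank were Pih1d1 (log2 fold change 0.50), a subunit of the R2TP chaperone complex, Ifngr2 (0.31), a chain of the interferon gamma receptor, Tepsin (0.42), an accessory protein of the AP-4 adaptor, and Pabpc4 (0.35), a poly(A)-binding protein. Their edgeR adjusted p lay between 0.0953 and 0.116, and without both outlying libraries the values were 0.49, 0.25, 0.37 and 0.35. With GC offsets their log2 fold changes were 0.31, 0.19, 0.23 and 0.16.

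The genes lower in JU by the same rank were led by Dcun1d5 and Nr1d2. Dcun1d5, which helps attach NEDD8 to cullins, lies at chr9:7184520-7208205 and had 46.8, 57.4 and 52.1 CPM in JU, against 72.6, 71.6 and 69.9 CPM in JA. Its log2 fold change was −0.45 (SE 0.071, edgeR adjusted p = 0.0928, DESeq2 adjusted p = 2.48e-06), and −0.38 without both outlying libraries. The vehicle libraries had 51.6, 52.9 and 52.4 CPM of Dcun1d5 and the sham libraries 66.5, 72.0 and 71.0 CPM, so JU lay around vehicle and JA around sham. Nr1d2, at chr14:18204054-18239127, had 79.4, 99.7 and 93.4 CPM in JU, against 132, 125 and 140 CPM in JA (log2 fold change −0.55, SE 0.086, edgeR adjusted p = 0.0928, DESeq2 adjusted p = 2.28e-06, and −0.47 without both). Here too JU was close to the vehicle libraries, at 97.6, 95.9 and 101 CPM, and JA to the sham libraries, at 125, 129 and 123 CPM.

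Ipo7, a carrier for import into the nucleus, had 119, 129 and 128 CPM in JU, against 170, 168 and 183 CPM in JA, and the vehicle libraries had 122, 109 and 125 CPM. Its log2 fold change was −0.47 (edgeR adjusted p = 0.0928, DESeq2 adjusted p = 1.86e-07), and also −0.47 without both outlying libraries. Dcbld1 had 9.79, 9.19 and 9.57 CPM in JU, against 14.2, 14.05 and 14.5 CPM in JA (−0.58, SE 0.096, edgeR adjusted p = 0.0928, and −0.62 without both). In Dcbld1 the JU libraries were also under the UA libraries, at 12.6, 12.3 and 14.7 CPM, and the vehicle libraries, at 11.995, 11.8 and 12.1 CPM. The other genes of this rank were Rc3h2 (−0.38), the mRNA-decay protein roquin-2, Tbl1xr1 (−0.33), a subunit of a nuclear corepressor complex, Dnajb4 (−0.44), a cochaperone of Hsp70, and Zfp148 (−0.37), a zinc finger transcription factor. Without both outlying libraries these 4 values were −0.37, −0.32, −0.40 and −0.35. With GC offsets and all libraries the log2 fold changes were −0.30 for Ipo7, −0.54 for Dcbld1, −0.18 for Rc3h2, −0.21 for Tbl1xr1, −0.31 for Dnajb4 and −0.20 for Zfp148, and the values for Dcun1d5 and Nr1d2 were −0.30 and −0.41.

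**Figure D2:**
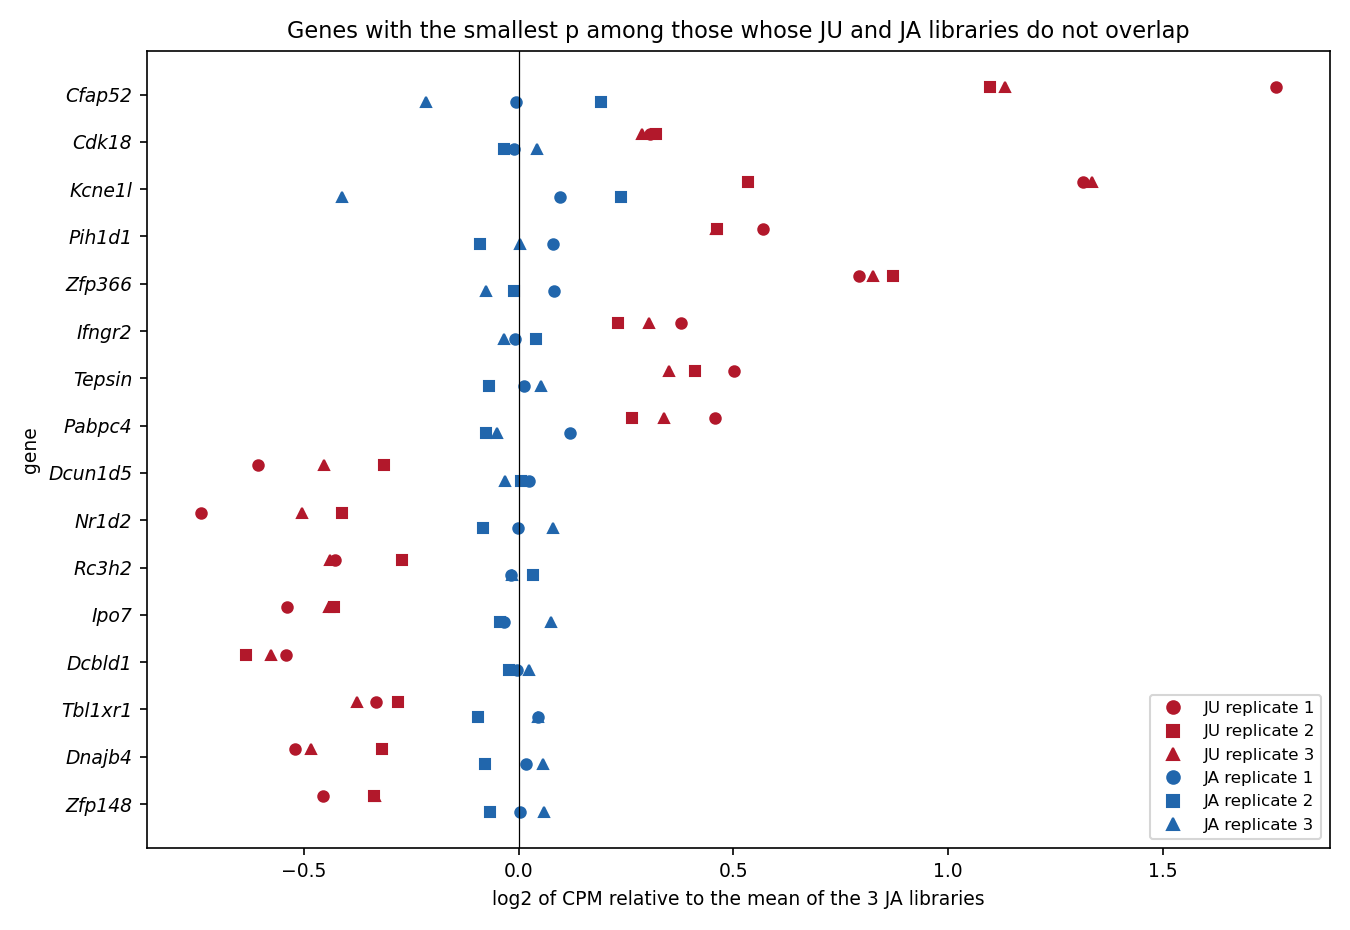
Log2 of CPM relative to the mean of the JA libraries for the 16 named genes with the smallest unadjusted p among those whose JU and JA libraries did not overlap; colours mark JU and JA and symbols mark replicates. In the upper rows the JU points lie right of the JA points, widest for Cfap52 at 5.64, 3.56 and 3.64 CPM in JU and 1.65, 1.90 and 1.43 CPM in JA, and in the lower rows they lie left of them.

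The genes with the smallest unadjusted p without JU replicate 1 and JA replicate 1 were chosen by the same rule, and apart from Nr1d2 they were others. Among them Selplg, a selectin ligand of leukocytes and microglia, had 83.7, 51.6 and 77.5 CPM in JU, against 59.4, 23.3 and 27.9 CPM in JA (log2 fold change 0.94 with all libraries and 1.32 without both, SE 0.262, edgeR adjusted p = 0.1001). Isg20, an interferon-induced exonuclease, had 4.56, 2.08 and 1.65 CPM in JU, against 0.902, 0.564 and 0.165 CPM in JA, and its log2 fold change was 2.32 with all libraries and 2.30 without both. The lowest JA value of Isg20 lies near the floor of 3 counts, 0.162 CPM in that library. Clu, the secreted chaperone clusterin, had 1191, 959 and 1179 CPM in JU, against 937, 772 and 728 CPM in JA (0.45, and 0.50 without both). In Isg20 and Clu no JU library overlapped a JA library, also with all 6 libraries, while in Selplg JU replicate 2 lay under JA replicate 1. Naaa, a lysosomal enzyme that breaks down N-acylethanolamines, had 55.2, 41.4 and 43.8 CPM in JU, against 36.2, 22.5 and 28.99 CPM in JA (0.68, and 0.72 without both). Paqr4 (log2 fold change 0.33 without both), Adhfe1 (0.88) and Whrn (0.49) were also of this rank. The same values for all libraries were 0.22, 0.44 and 0.12, and the groups overlapped in each of these 3 genes. With GC offsets and without both, the log2 fold changes were 1.25 for Selplg, 2.15 for Isg20, 0.34 for Clu and 0.66 for Naaa. For Paqr4, Adhfe1 and Whrn they were 0.16, 0.98 and 0.34.

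Gapdh, the glycolytic enzyme often taken as a constant reference, had 29.9, 41.7 and 72.3 CPM in JU, against 26.1, 27.2 and 25.96 CPM in JA (log2 fold change 0.86, and 1.09 without both, edgeR adjusted p = 0.0986). Its level in the other 9 libraries lay within 26.6 and 33.5 CPM, so JU replicates 2 and 3 exceeded every library outside JU. Gapdh has many near-identical processed copies in the genome, so its counts are uncertain.

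On the lower side of the same rank, Zc3h12c, an RNase of the regnase family, had 20.9, 16.1 and 15.6 CPM in JU, against 25.8, 23.4 and 23.5 CPM in JA (log2 fold change −0.47 with all libraries and −0.58 without both, SE 0.090, edgeR adjusted p = 0.0986). Lifr, the receptor chain for leukemia inhibitory factor, had 44.0, 38.5 and 38.1 CPM in JU, against 51.7, 49.7 and 51.3 CPM in JA (−0.34, and −0.41 without both). In Lifr the vehicle and sham libraries, between 37.7 and 41.7 CPM, sat with JU, and JA was the highest of these 4 groups. Crk, an adaptor protein of tyrosine kinase signalling, had 148, 133 and 125 CPM in JU, against 171, 164 and 180 CPM in JA (−0.34, and −0.42 without both). Esco1 (−0.87), an acetyltransferase of cohesin, Arl5b (−0.61), a small GTPase of the Golgi, Gmps (−0.48), which makes GMP, and Mex3c (−0.45), an RNA-binding ubiquitin ligase, had the same adjusted p of 0.0986 without both libraries, the fit these values come from. With all libraries they were −0.47, −0.48, −0.33 and −0.20. Esco1 and Mex3c overlapped between the groups once JU replicate 1 and JA replicate 1 were counted. With GC offsets and without both, the log2 fold changes were −0.40 for Zc3h12c, −0.31 for Lifr and −0.30 for Crk. For Esco1, Arl5b, Gmps and Mex3c they were −0.64, −0.39, −0.25 and −0.41.

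Transcripts of low GC content were lower in JU across the transcriptome. In the lowest decile of genes by transcript GC, the median log2 fold change was −0.235, and −0.263 without both outlying libraries. In the highest decile it was 0.101, and 0.136 without both. The median deviation of the lowest decile from the mean of the 6 libraries was −0.080, −0.095 and −0.146 in JU and 0.130, 0.068 and 0.178 in JA, so the groups did not overlap. The means differed by −0.232, with an exact two-sided permutation p of 0.1, the smallest that 3 against 3 libraries allow. For the highest decile the means differed by 0.101 with an exact two-sided permutation p of 0.2, and there JU replicate 1, at −0.037, lay below JA replicate 2, at −0.0002, so the groups overlapped. Of the lowest decile, 34.8% of the genes were lower in JU at an unadjusted p under 0.05, and of the highest decile 0.137%.

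The genes DESeq2 called carried this gradient: the 444 lower in JU had a median GC content of 41.4% and the 199 higher 54.6%, against 49.9% over all genes tested, and 224 of the 444 came from the lowest decile. After GC offsets were added the lowest decile had a median log2 fold change of −0.049. DESeq2 with GC factors, a fit added after the data were seen, called 7 genes, which were Cfap52 (adjusted p = 0.00394), Kcne1l (0.0312) and Psmd11 (0.0219) higher in JU and Dcbld1 (0.0219), Lifr (0.0219), Cpeb2 (0.0219) and Crk (0.0312) lower. Psmd11, a subunit of the proteasome lid, had 77.9, 76.2 and 69.8 CPM in JU, against 66.7, 65.9 and 68.3 CPM in JA. Cpeb2, a regulator of mRNA translation, had 68.4, 57.8 and 56.2 CPM in JU, against 71.7, 71.9 and 67.2 CPM in JA. The globin genes and Alas2 had log2 fold changes of 3.33 to 3.53 with GC offsets in edgeR, and 2.93 to 3.17 without both outlying libraries. DESeq2 with GC factors called none of them. Its adjusted p was 0.202 for Hba-a1, 0.249 for Alas2 and 0.257 for Hbb-bs, and it gave Hbb-bt no adjusted p.

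**Figure D3:**
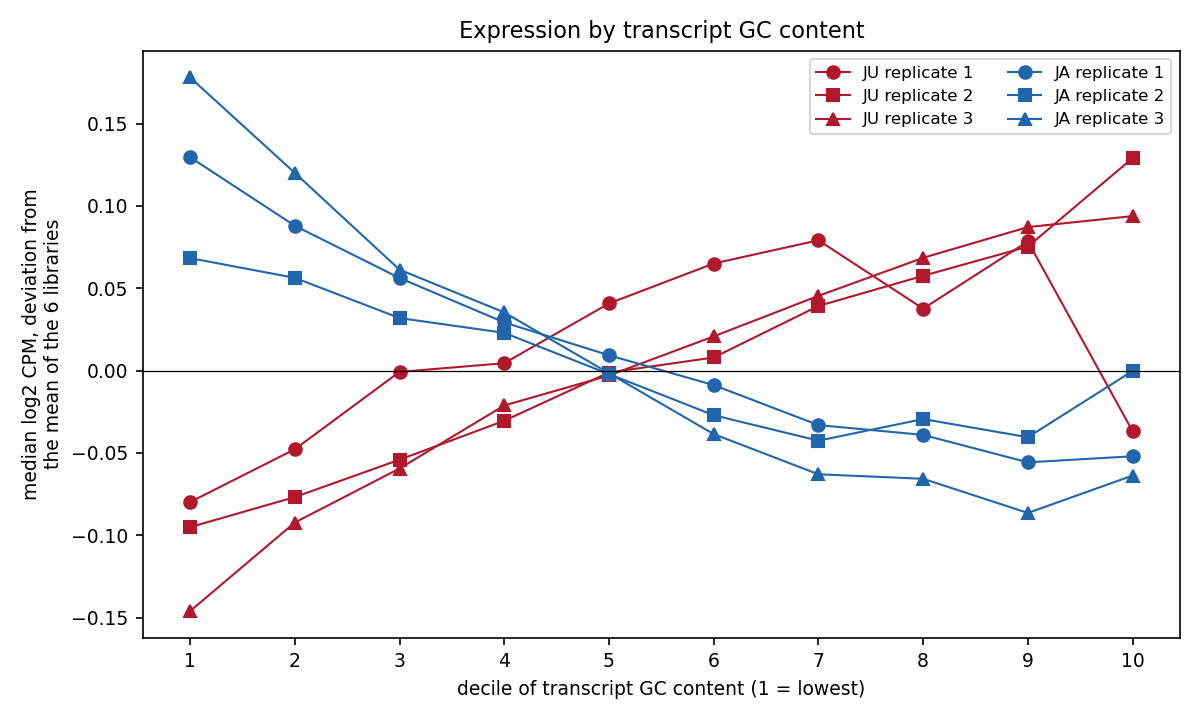
Median deviation of log2 CPM from the mean of the 6 libraries (vertical axis) for genes in deciles of transcript GC content, lowest at 1 (horizontal axis); 1 line per JU and JA library. In the lowest decile the JU libraries sit at −0.080, −0.095 and −0.146 and the JA libraries at 0.130, 0.068 and 0.178.

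Across 47 gene lists fixed by function or cell type, 31 had a positive median log2 fold change and 16 a negative one, beside a median of 0.0228 over all genes tested. Without both outlying libraries these numbers were 32 and 15, and 3 lists changed sign. Without JU replicate 1 alone, 22 of the 47 lists changed sign, so for many lists the side on which JU lay depended on that library. The lists of reactive microglia, complement, reactive astrocytes, extracellular matrix and border macrophages had medians between 1.69 and 2.26 with all libraries and between 0.09 and 0.87 without both. Without JU replicate 1 alone, which keeps JA replicate 1 in, these 5 medians were −0.09, −0.06, 0.13, −0.01 and −0.63. No member of any list passed edgeR's test.

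**Figure D4:**
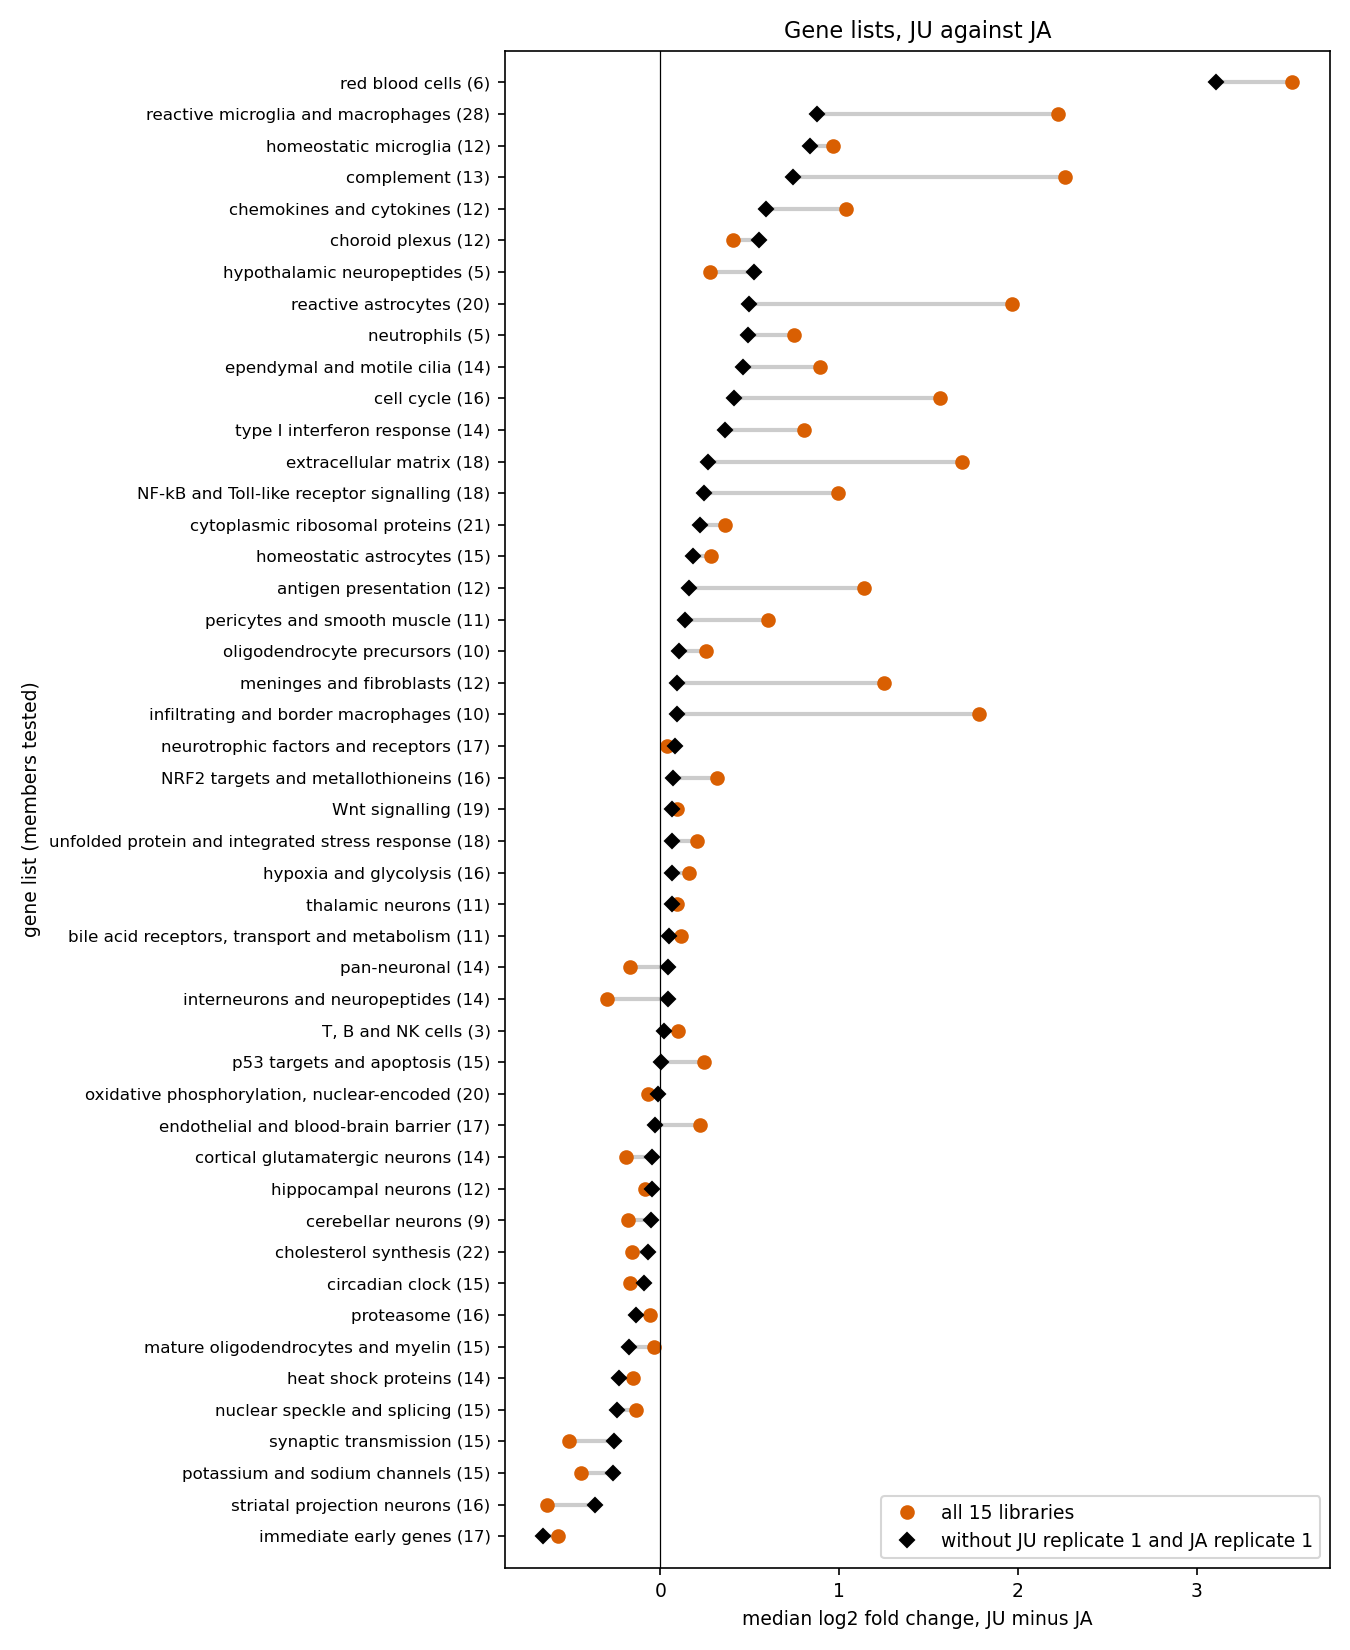
Median log2 fold change, JU minus JA, of each gene list (vertical axis, with the number of members tested), with all 15 libraries as circles and without JU replicate 1 and JA replicate 1 as diamonds. Red blood cells stand furthest right in both, at 3.53 and 3.11, and the medians of the glial and matrix lists are nearer 0 without both libraries.

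Homeostatic microglia genes were the glial list that held its direction in every member. All 12 genes had positive fold changes with and without both libraries, beside 52.9% and 51.7% of all genes tested, and the median was 0.97 with them, 0.84 without both and 0.45 without JU replicate 1 alone. Sall1, a transcription factor of microglial identity, had 79.5, 33.7 and 57.6 CPM in JU, against 40.7, 29.8 and 29.3 CPM in JA. Tmem119, a surface protein of microglia, had 127, 36.7 and 57.9 CPM in JU, against 51.7, 27.7 and 26.6 CPM in JA (log2 fold change 1.06, and 0.79 without both). Olfml3, a secreted matrix protein, had 100, 16.6 and 65.9 CPM in JU, against 33.03, 24.3 and 16.6 CPM in JA. The groups overlapped in all 3 genes, with JU replicate 2 at the level of JA. At an unadjusted p under 0.05, 8 of the 12 were higher in JU, where 11.6% of all genes were, and 4 without both libraries, where 4.15% were.

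Reactive microglia genes were higher in JU through JU replicate 1 and, less so, JU replicate 3. Cd14, a co-receptor for bacterial lipopolysaccharide, had 86.6, 3.99 and 13.5 CPM in JU, against 12.8, 4.05 and 2.26 CPM in JA. Tlr2, a Toll-like receptor, had 52.6, 2.35 and 9.47 CPM in JU, against 7.62, 2.51 and 1.98 CPM in JA. Cd44, the hyaluronan receptor, had 111, 6.73 and 13.8 CPM in JU, against 18.2, 6.61 and 4.35 CPM in JA. In each of these genes JU replicate 2 lay among the JA libraries, and JA replicate 1 was above the other JA libraries. All 28 members had positive fold changes with all libraries and 25 without both, and the list's median was 2.22, 0.87 without both and −0.09 without JU replicate 1 alone.

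Complement (13 genes, median 2.26, 0.74 without both and −0.06 without JU replicate 1 alone) had the same shape. C3, the central component, had 67.2, 1.42 and 7.78 CPM in JU, against 7.27, 1.08 and 1.16 CPM in JA. Among chemokines and cytokines, of which 12 of 18 could be tested, Ccl6, a chemokine of myeloid cells, had 56.1, 4.43 and 25.9 CPM in JU, against 16.1, 1.49 and 2.92 CPM in JA, a log2 fold change of 2.07 with all libraries and 2.78 without both. Rsad2, the antiviral protein viperin from the interferon list, had 8.36, 2.46 and 1.10 CPM in JU, against 3.96, 0.820 and 0.440 CPM in JA. The 14 interferon genes tested had a median of 0.80, 0.36 without both and −0.38 without JU replicate 1 alone. The groups overlapped in C3, Ccl6 and Rsad2. Neutrophil genes could be tested for 5 of 11 members and those of T, B and NK cells for 3 of 14. None of these had an unadjusted p under 0.05 in either fit, where 20.6% and 13.9% of all genes did.

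Astrocyte genes differed in the same direction. Gfap, the intermediate filament of reactive astrocytes, had 4674, 284 and 1889 CPM in JU, against 817, 301 and 163 CPM in JA (log2 fold change 2.42, SE 0.827, edgeR adjusted p = 0.190, DESeq2 adjusted p = 0.0397). JU replicate 2 lay below 2 of the JA libraries, and the value without both outlying libraries was 2.21. Sox9, a transcription factor of astrocytes, had 35.3, 20.6 and 28.7 CPM in JU, against 17.3, 17.6 and 17.3 CPM in JA (0.70, SE 0.161, edgeR adjusted p = 0.119, DESeq2 adjusted p = 0.00570, and 0.49 without both), and here no library overlapped. Vim, vimentin, had 1358, 47.3 and 161 CPM in JU, against 160, 49.9 and 38.8 CPM in JA. The 20 reactive astrocyte genes all had positive fold changes, 16 with an unadjusted p under 0.05, where 11.6% of all genes were higher at that p. Without both libraries 17 were positive and 2 under 0.05, where 4.15% of all genes were. The median was 1.97, 0.50 without both and 0.13 without JU replicate 1 alone. The 15 homeostatic astrocyte genes had a median of 0.28, and 0.18 without both. Among them Atp1b2, a sodium pump subunit of astrocytes, had 686, 583 and 622 CPM in JU, against 505, 499 and 450 CPM in JA. DESeq2's adjusted p for Atp1b2 was 0.00589, and 0.301 with GC factors. Its log2 fold change was 0.38, and 0.20 with GC offsets.

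Genes of ependymal cells and motile cilia were higher in JU replicates 1 and 3. The 14 genes summed to 124, 42.5 and 69.6 CPM in JU and to 44.1, 45.3 and 35.6 CPM in JA, so JU replicate 2 lay among the JA libraries. In the list of ependymal cells and motile cilia, all 14 genes had positive fold changes, 13 without both libraries, with a median of 0.90 and 0.46. Cfap126, a protein of motile cilia, had 8.41, 3.39 and 5.53 CPM in JU, against 2.21, 1.74 and 2.48 CPM in JA (log2 fold change 1.43, SE 0.432, edgeR adjusted p = 0.1596, DESeq2 adjusted p = 0.0381, and 1.07 without both). Tmem212 had 2.87, 1.64 and 2.49 CPM in JU, against 1.40, 1.23 and 0.495 CPM in JA. Ak7, an adenylate kinase of cilia, had 7.18, 3.45 and 4.64 CPM in JU, against 3.11, 2.97 and 2.26 CPM in JA. No JU library overlapped a JA library in Cfap126, Tmem212 or Ak7. Of the 14 list members, 4 had all JU libraries above all JA libraries, against 7.04% of all genes. The 12 choroid plexus genes also had positive fold changes in both fits, with medians of 0.41 and 0.55. None of them had an unadjusted p under 0.05 in either fit, where 20.6% and 13.9% of all genes did. The choroid plexus genes summed to 444, 705 and 1281 CPM in JU and to 431, 797 and 449 CPM in JA. The groups thus overlapped, and only JU replicate 3 lay above every JA library. Whether the share of ventricular tissue in the samples differed was not tested.

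Matrix and vessel genes were higher mainly in JU replicate 1. Mmp2, a gelatinase, had 78.4, 3.77 and 12.7 CPM in JU, against 6.52, 3.28 and 4.35 CPM in JA (log2 fold change 2.74, and 1.10 without both), and DESeq2's adjusted p over all libraries was 0.0158. Igfbp5, a binding protein of insulin-like growth factors, had 914, 281 and 391 CPM in JU, against 316, 240 and 216 CPM in JA (log2 fold change 1.04, and 0.55 without both). In the endothelial list the median was 0.22, and −0.03 without both. Within it Cldn5, the tight junction claudin, had 57.7, 24.7 and 29.2 CPM in JU, against 21.9, 23.8 and 22.6 CPM in JA. Tfrc, the transferrin receptor through which iron enters cells, went the other way, with 63.3, 102 and 74.3 CPM in JU, against 93.9, 122 and 128 CPM in JA (−0.52 in both fits). The JU and JA libraries overlapped in Tfrc, with JU replicate 2 above JA replicate 1.

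Genes of neuronal signalling were lower in JU, most of all in JU replicate 1. All 16 genes of striatal projection neurons had negative fold changes in both fits. Their median was −0.63, −0.37 without both and −0.12 without JU replicate 1 alone. At an unadjusted p under 0.05, 0 of them were lower with all libraries and 1 without both, where 9.04% and 9.74% of all genes were. Pde10a, the striatal phosphodiesterase, had 41.8, 270 and 137 CPM in JU, against 138, 282 and 380 CPM in JA. The groups overlapped in Pde10a, with JU replicates 1 and 3 below every JA library. In the pan-neuronal list the median was −0.17 with all libraries and 0.04 without both.

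Of 15 synaptic genes, 14 had negative fold changes and 9 did not overlap between the groups, with all JU libraries below all JA libraries, against 10.3% of all genes. Nlgn1, the adhesion molecule neuroligin 1, had 44.9, 92.1 and 77.9 CPM in JU, against 104, 103 and 113 CPM in JA. Gria2, an AMPA receptor subunit, had 206, 453 and 391 CPM in JU, against 458, 489 and 594 CPM in JA. In both genes JU replicate 1 was far under the rest, and the other JU libraries lay under the lowest JA library. The log2 fold change of Nlgn1 was −0.57, and −0.35 without both, and that of Gria2 −0.55, and −0.37 without both. Without both outlying libraries, GC offsets brought these to −0.12 and −0.09. All 15 potassium and sodium channel genes had negative fold changes, 13 without both. Kcna1, a voltage-gated potassium channel of axons, had 150, 202 and 199 CPM in JU, against 234, 247 and 262 CPM in JA (−0.43, SE 0.110, edgeR adjusted p = 0.130, DESeq2 adjusted p = 0.0107, and −0.35 without both). For Kcna1, GC offsets gave −0.54, and the sham libraries, at 251, 254 and 228 CPM, lay with JA and the vehicle libraries, at 184, 170 and 184 CPM, with JU.

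Immediate early genes were lower in JU once JU replicate 1 and JA replicate 1 were set aside. Of the 17 genes, 15 had both remaining JU libraries below both remaining JA libraries, and the other 2, Jun and Nr4a2, had them above, where 25% and 24.7% of all genes do so. The list's median was −0.57 with all libraries, −0.66 without both and −0.27 without JU replicate 1 alone. With all libraries 0 members, and without both 6, were lower at an unadjusted p under 0.05, where 9.04% and 9.74% of all genes were. Egr2, a zinc finger transcription factor, had 4.56, 9.57 and 6.33 CPM in JU, against 1.95, 22.3 and 19.03 CPM in JA (log2 fold change −1.08 with all libraries and −1.39 without both, SE 0.495, edgeR adjusted p = 0.260). Dusp1, a phosphatase that switches off MAP kinases, had 22.4, 39.2 and 27.2 CPM in JU, against 17.5, 58.0 and 57.6 CPM in JA (−0.58, and −0.81 without both). Junb, a subunit of the AP-1 factor, had 57.2, 58.5 and 40.8 CPM in JU, against 30.9, 86.5 and 77.4 CPM in JA (−0.32, and −0.74 without both). JA replicate 1 was the lowest of the 6 libraries in these 3 genes, so with all libraries the groups overlapped. Arc, a synaptic protein named here after its values were seen, had 22.9, 168 and 137 CPM in JU, against 35.6, 383 and 295 CPM in JA. The sham libraries had 68.3, 70.6 and 89.4 CPM of Arc and the UA libraries 233, 213 and 274 CPM. JA replicates 2 and 3 were thus the highest of the 15 libraries in Arc. The time of day and the handling before tissue was taken were not stated in the labels, and their part was not tested.

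**Figure D5:**
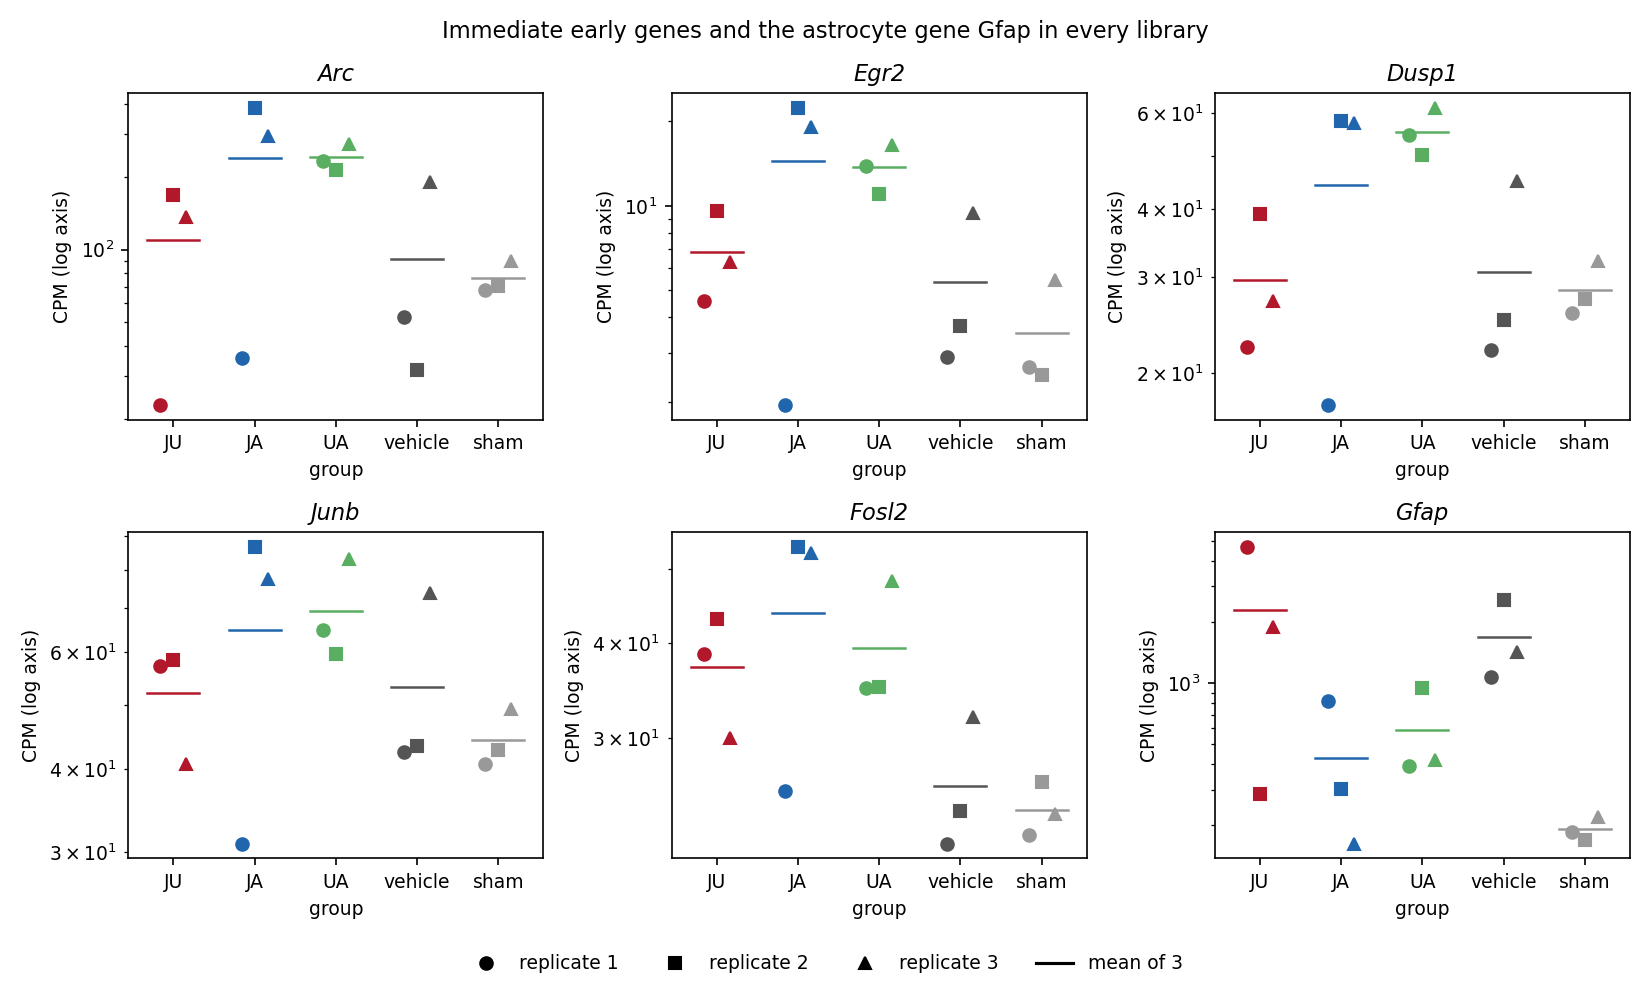
CPM on a log axis of the immediate early genes Arc, Egr2, Dusp1, Junb and Fosl2 and of the astrocyte gene Gfap in each library of the JU, JA, UA, vehicle and sham groups; symbols mark replicates and bars the mean of 3. JA replicate 1 lies far below JA replicates 2 and 3 in Arc (35.6 against 383 and 295 CPM) and above them in Gfap (817 against 301 and 163 CPM).

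In the clock list, 14 of 15 genes had negative fold changes (median −0.17, and −0.09 without both), 2 with an unadjusted p under 0.05, where 9.04% of all genes were lower at that p. Beside Nr1d2 the other was Clock, an activator of the circadian loop, with 73.9, 78.6 and 78.4 CPM in JU, against 86.6, 100 and 108 CPM in JA (log2 fold change −0.35, SE 0.090, edgeR adjusted p = 0.132, DESeq2 adjusted p = 0.0153, and −0.42 without both). In both genes every JU library lay under every JA library. GC offsets gave −0.20 for Clock and −0.41 for Nr1d2.

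Genes of protein and RNA handling mostly differed by small amounts. Of 14 heat shock genes 10 had negative fold changes, with a median of −0.15, and −0.23 without both, while their mean was 0.06. At an unadjusted p under 0.05, 5 were lower and 2, Bag3 and Hspb1, higher in JU, where 9.04% and 11.6% of all genes were. Without both libraries 5 were lower and 0 higher, where 9.74% and 4.15% of all genes were. Bag3, a cochaperone of Hsp70, had a log2 fold change of 1.36, and 0.39 without both, and Hspb1, a small heat shock protein named after its values were seen, 1.61, and −0.17 without both. Bag3 had 41.3, 8.75 and 11.1 CPM in JU, against 8.77, 8.31 and 6.71 CPM in JA. Hspb1 had 37.0, 3.61 and 4.14 CPM in JU, against 5.96, 4.15 and 4.51 CPM in JA. In both genes JU replicate 1 lay far above every other JU and JA library. Hspd1, the mitochondrial chaperonin, had 134, 148 and 138 CPM in JU, against 163, 168 and 172 CPM in JA (log2 fold change −0.26 in both fits, DESeq2 adjusted p = 0.0192). Ndufs1, the largest subunit of respiratory complex I, had 113, 140 and 144 CPM in JU, against 153, 181 and 190 CPM in JA (−0.40 in both fits, DESeq2 adjusted p = 0.0153). The JU libraries did not overlap the JA libraries in Hspd1 or Ndufs1, and GC offsets left −0.28 and −0.36. Among the 20 nuclear-encoded genes of oxidative phosphorylation 18 were negative, with a median of −0.07, −0.02 without both and 0.04 without JU replicate 1 alone.

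Of 21 cytoplasmic ribosomal protein genes 20 had positive fold changes, and 17 without both, beside 52.9% and 51.7% of all genes tested. The median was 0.36, 0.22 without both, 0.13 without JU replicate 1 alone and 0.23 with GC offsets. The genes summed to 7760, 5178 and 5133 CPM in JU and to 5610, 4556 and 4612 CPM in JA, so JU replicates 2 and 3 lay below JA replicate 1. In 2 of the 21 all JU libraries lay above all JA libraries, against 7.04% of all genes. Rpl28, which did not overlap, had 323, 213 and 222 CPM in JU, against 200, 178 and 181 CPM in JA (log2 fold change 0.44, and 0.24 with GC offsets). Proteasome genes had a median of −0.06, with 4 of 16 lower and 2 higher in JU at an unadjusted p under 0.05, where 9.04% and 11.6% of all genes were. Without both libraries the median was −0.14, with 5 lower and 0 higher, where 9.74% and 4.15% of all genes were. In the splicing list, where 15 of 18 genes were tested, the median was −0.14, −0.24 without both libraries and −0.02 with GC offsets. Its transcripts had a median GC content of 41.6%. Srsf7, a splicing factor, had 60.4, 66.7 and 61.5 CPM in JU, against 73.0, 73.7 and 77.1 CPM in JA, a log2 fold change of −0.25 in both fits that became −0.11 with GC offsets and all libraries.

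The lists nearest to the compounds in the study's title showed small differences. Of 21 genes of bile acid receptors, transport and metabolism 11 could be tested, with a median of 0.12, and 3 were higher and 2 lower in JU at an unadjusted p under 0.05, where 11.6% and 9.04% of all genes were. The median was 0.05 without both libraries and turned direction without JU replicate 1 alone, to −0.06, and with GC offsets, to −0.05. Slco1a4, a transporter of bile acids and other anions at the blood-brain barrier, had 36.7, 41.4 and 40.4 CPM in JU, against 55.3, 49.6 and 51.5 CPM in JA (log2 fold change −0.40, SE 0.139, edgeR adjusted p = 0.192, and −0.32 without both). No library overlapped in Slco1a4, and GC offsets gave −0.23. Vdr, the vitamin D receptor, which also binds the bile acid lithocholic acid, had 4.67, 0.930 and 0.897 CPM in JU, against 0.902, 0.564 and 0.550 CPM in JA. The Vdr difference (1.68) came mostly from JU replicate 1, and was 0.69 without both libraries. Of 22 cholesterol synthesis genes, 19 had negative fold changes (median −0.16). The median was −0.07 without both and turned to 0.19 without JU replicate 1 alone. At an unadjusted p under 0.05, 0 of these genes were lower in JU with all libraries and 2 without both, where 9.04% and 9.74% of all genes were. In neither fit were any higher at that p.

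In the list of NRF2 targets and metallothioneins, 13 of 16 genes had positive fold changes (median 0.32, and 0.07 without both). Mt3, the metallothionein of neurons and astrocytes, had 241, 246 and 273 CPM in JU, against 212, 192 and 221 CPM in JA (log2 fold change 0.28, and 0.32 without both, DESeq2 adjusted p = 0.0320). Gclc, the catalytic subunit of the first enzyme of glutathione synthesis, had 62.0, 56.7 and 56.6 CPM in JU, against 71.5, 66.8 and 66.4 CPM in JA (−0.22, and −0.25 without both). Neither gene overlapped between the groups, and they lay on opposite sides. With GC offsets the log2 fold changes were 0.16 for Mt3 and −0.28 for Gclc. DESeq2 with GC factors gave Mt3 an adjusted p of 0.448.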

How the data were processed

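Brain RNA of 15 libraries was sequenced after TruSeq Stranded mRNA preparation, per the labels' protocols, and DESeq, Cufflinks, HISAT2, Trimmomatic and the builds GRCm38 and mm10 are named, with no versions or roles, per the submitters' processing notes. The strand setting, like the counter and annotation, is not given in the sources used here. The deposited table of the authors holds whole-number counts per gene and FPKM values, whose units were checked against the values; 0 rows name no gene, and 1 count column, whose name begins with JU, matches no sample's labels and was not used, so the JU values rest on the 3 labelled libraries. Overlapping and antisense genes and near-identical copies are therefore uncertain.

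Genes with at least 10 counts in at least 3 of the 6 JU and JA libraries were fitted in R 4.3.3 with edgeR 4.0.16 (TMM scaling, robust quasi-likelihood test, 5 groups, 15 libraries, 10 residual degrees of freedom, Benjamini-Hochberg adjustment over 14664 genes, threshold 0.05). The biological coefficient of variation was 26.0%, and 14.4% in the fit without JU replicate 1 and JA replicate 1, which has 13 libraries. CPM values use TMM library sizes. Alternatives were DESeq2 1.42.0, limma 3.58.1 (voom, or log2 of the deposited FPKM plus 1 or 0.1), other filters and scalings, left-out libraries, a replicate block and offsets for transcript GC content (spline with 4 degrees of freedom; GENCODE M21 matched 97.9% of the genes). Simulated counts were used to test edgeR with 15, 13 and 6 libraries, the replicate block of 6 libraries and GC offsets over 15 libraries. DESeq2, DESeq2 with GC factors and voom, each over all libraries, were tested likewise. The other alternatives were not.

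Same-numbered JU and JA libraries deviated together (r = 0.708, 0.390 and 0.422 across genes for replicates 1, 2 and 3), which meets the rule set for pairing (every r over 0.1). The deviations were taken from each group's own mean, which ties the 3 values to each other, so meeting the rule does not show pairing. The labels do not say what a number marks. JU replicate 2 correlated more with JA replicate 3 (0.614) than with JA replicate 2, and JU replicate 3 also with JA replicate 2 (0.292). Named genes were, in each direction, the 8 with the smallest p among genes with a mean of at least 1 CPM, no overlap between the groups and no predicted or clone symbol (in the fit of all libraries and in that without both), and up to 4 per list by p; not all are printed, and some items are not reported here. The libraries, genes and lists were chosen with earlier results of these data known, so no list is tested. Intervals from counting alone do not cover the spread between samples; a floor of 3 counts corresponds to 0.150 to 0.162 CPM of the total counts of the 6 libraries.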

Additional observations from a re-analysis of the deposited data

How the results depend on the processing

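edgeR's count of 0 genes held with only the 6 JU and JA libraries, RLE size factors, no filter on low counts, filterByExpr, GC offsets and, among other tools, voom and limma on FPKM. It was 2 in the fit of only the 4 libraries left without JU replicate 1 and JA replicate 1, and 0 to 71 when each of the 6 libraries was left out in turn, the 71 without JU replicate 2. DESeq2 called 643 genes, DESeq2 without both libraries 255, voom with quality weights 1844, and DESeq2 with GC factors, an alternative added after seeing the data, 7; the cause was not tested. With the replicate block, in 6 or in 15 libraries and also with GC offsets, edgeR's count was 0, as without it; no blocked fit was run for DESeq2 or with libraries left out. Among the genes named in the text, Bpgm, Whrn and Hspb1 turned direction. Hspb1 was −0.172 in the fit of 4 libraries, −0.334 with GC offsets without both, −0.160 with DESeq2 without both, −0.0972 with voom and quality weights, and −0.331 to 2.06 with 1 of the 6 libraries, or both outlying ones, left out. Bpgm was −0.0182 with GC offsets, −0.0188 with DESeq2 and GC factors and −0.0306 with GC offsets and the replicate block. Whrn was −0.00891, −0.00916 and −0.0845 under the same settings and −0.130 to 0.491 with 1 of the 6 libraries, or both outlying ones, left out. GC offsets moved the median of all genes to −0.0579. Each group held 3 libraries, of at least 18575134 counts each among JU and JA.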
